A study of Mus musculus with 6 samples.

Results

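Solute carriers are membrane proteins that move amino acids, sugars, ions, metals, vitamins and nucleosides across the plasma membrane and the membranes of the organelles, and mouse genes for them carry symbols that begin with Slc. The genes described here are the rows of the deposited table whose symbol is Slc followed by a digit, without the mitochondrial Slc25a carriers and without 14 single glucose, lactate and amino acid carriers that T cell metabolism studies usually lead with, among them Slc2a1, Slc7a5 and Slc1a5. The table held 218 such symbols among 14481 genes, of which 41 were Slc25a genes, and 163 remained. They fell into 44 numbered families and were sorted by textbook substrate into 13 transporter classes, with 6 genes set apart because the symbol names no transporter (Slc9a3r1 and Slc9a3r2, Slc4a1ap, Slc7a6os, Slc36a3os and the pseudogene Slc2a4rg-ps).

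The samples were wild-type mouse CD8+ T cells, the cytotoxic T lymphocytes. Sorted cells of both groups had been activated for 1 day with plate-bound anti-CD3, soluble anti-CD28 and interleukin 2. Conditioned medium (CM) of astrospheres was then given, and total RNA was taken after 2 days more, on day 3. The cells called STAT3+ CM received medium of astrospheres positive for phosphorylated STAT3 (3 libraries), and those called STAT3- CM received medium of astrospheres negative for it (3 libraries). All libraries had thus been activated and had received CM, and cells without CM were not analysed here. No label says that the libraries of a group came from separate mice or cultures, so a p-value here speaks only for the spread among these 6 libraries, which may be technical.

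A resting T cell imports little. After activation it takes up amino acids, nucleosides, folate, phosphate, iron and zinc for growth and division, and it keeps its cytosolic pH and its volume in check with sodium/proton exchange, bicarbonate carriers and organic osmolytes. Nucleotide sugar carriers of the SLC35 family feed the glycosylation enzymes of the Golgi, and zinc is divided between SLC39 (ZIP) carriers, which bring it into the cytosol, and SLC30 (ZnT) carriers, which take it out.

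Depth was even, with 43346089 to 53630514 counts per library. Summed over the solute carrier genes, the level was 3818, 3943 and 4392 CPM (read counts over the scaled library size) in STAT3+ CM replicates 1, 2 and 3, against 4231, 4096 and 4138 CPM in STAT3- CM replicates 1, 2 and 3. Markers of CD8 T cells were all present in the 6 libraries, with 9 of 9 measured. Their summed level was 3060 to 3935 CPM in STAT3+ CM and 3042 to 3275 CPM in STAT3- CM, which overlapped. All 9 log2 fold changes were above 0, with a median of 0.18, against 50.2% of all genes above 0. None of the 9 had an unadjusted p under 0.05 in edgeR. STAT3+ CM replicate 1 and STAT3- CM replicate 3 were set apart in an earlier analysis of these data, so counts of genes are given here also without them. Of 10 dendritic cell markers 7 were in the table, while Flt3, Clec9a and Xcr1 were not. Their summed level was 95.3 to 119.9 CPM in STAT3+ CM and 132 to 185 CPM in STAT3- CM, so it did not overlap between the groups. Of the 7, 6 log2 fold changes were below 0 and 1 above. At an unadjusted p under 0.05 in edgeR, 4 of the 7 were lower in STAT3+ CM, against 2.3% of all genes. The part of this difference in the values below was not tested. Macrophage and monocyte markers, 5 of 8 in the table, summed to 109 to 204 CPM in STAT3+ CM and 93.4 to 149 CPM in STAT3- CM, and no neutrophil or erythroid marker of the lists was in the table. The sums also overlapped for the NK, CD4 T, and mast and basophil lists. NK markers summed to 121 to 132 CPM in STAT3+ CM and 103 to 137 CPM in STAT3- CM. Of 6 B cell markers only Cd79b was in the table, with 10.9 to 11.8 CPM in STAT3+ CM and 7.40 to 10.7 CPM in STAT3- CM. In bulk RNA, fewer cells of a type and less RNA per cell cannot be told apart.

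No solute carrier gene differed between the groups beyond the threshold. Of 163 genes 162 were tested, and 1 was removed by the filter on low counts. An adjusted p under 0.05 was reached by 0 of 162 genes by the quasi-likelihood test of edgeR, adjusted after Benjamini and Hochberg over all genes, where 0 of 14319 genes (0%) reached it. The count among the solute carrier genes was also 0 in DESeq2, against 48 of all genes (0.335%), 0 in limma-voom (0 genes, 0%) and 0 in limma-voom with sample quality weights (16 genes, 0.112%). At an unadjusted p under 0.05 stood 8 solute carrier genes (4.94%), of 521 genes in all (3.64%), a share near that of the table. Of the 8, 7 were lower in STAT3+ CM (4.32%, against 2.3% of all genes) and 1 gene was higher in STAT3+ CM (0.617%, against 1.34%). Dendritic marker sums were also lower in STAT3+ CM, and a link to these genes was not tested. The values of the groups did not overlap for 10 genes (6.17%), against 7.95% of all genes. Of these 10, 8 were lower in STAT3+ CM (4.94%, against 4.18%) and 2 were higher (1.23%, against 3.78%).

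The median absolute log2 fold change was 0.12 over the solute carrier genes and 0.13 over all genes, and the median SE was 0.19 over the solute carrier genes and 0.18 over all genes. The 95% interval of the fold change lay within 1.5-fold in either direction for 92 of the 162 genes (56.8%), against 53.5% of all genes, and within 2-fold for 126 (77.8%), against 79.2%. Low counts were common among the leading genes. Of the 8 genes at an unadjusted p under 0.05, 4 had a mean level under 1 CPM, a range with 20 solute carrier genes, and 3 had 1 to 10 CPM, a range with 51. In the range from 10 to 100 CPM stood 87 genes and 1 of the 8, and in the range of 100 CPM or more 5 genes and 0 of the 8.

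**Figure D1:**
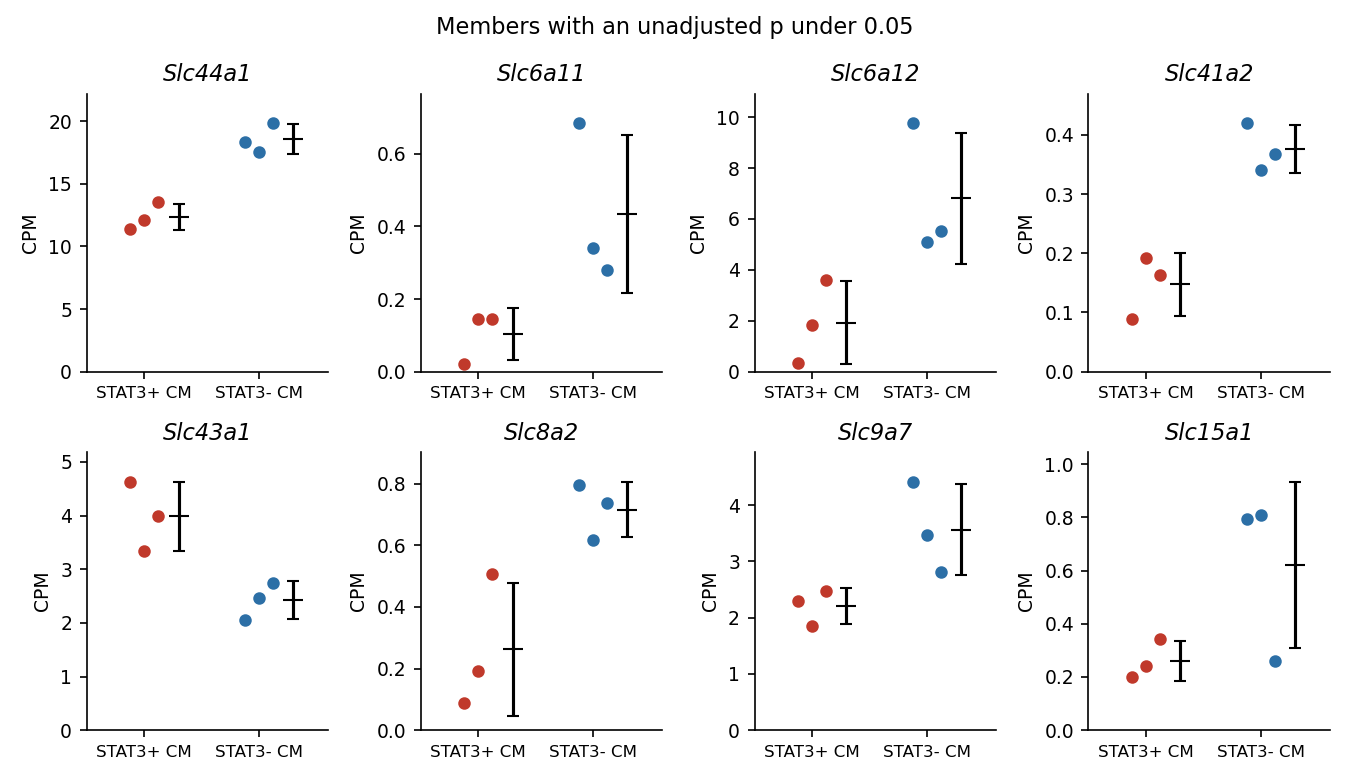
CPM (y axis, linear, from 0) of the 8 solute carrier genes with an unadjusted p under 0.05 in edgeR, by group, with 1 point for each library (replicates 1, 2 and 3 from left to right) and a bar for the mean ± SD of 3 libraries. The groups do not overlap for 7 of the 8 genes, while for Slc15a1 STAT3- CM replicate 3 lies among the STAT3+ CM libraries.

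Slc44a1 had the smallest p of the solute carrier genes. It encodes a choline transporter, CTL1, of the plasma membrane and mitochondria that supplies choline for phosphatidylcholine. Its level was 11.4, 12.1 and 13.5 CPM in STAT3+ CM replicates 1 to 3, against 18.4, 17.5 and 19.8 CPM in STAT3- CM replicates 1 to 3. All STAT3+ CM libraries lay below all STAT3- CM libraries. The mean was 12.4 ± 1.07 CPM in STAT3+ CM and 18.6 ± 1.17 CPM in STAT3- CM (SD, n = 3 each). The log2 fold change, STAT3+ CM over STAT3- CM, was -0.59 (SE 0.15, 95% interval -0.91 to -0.26), with an adjusted p of 0.702 in edgeR and 0.0574 in DESeq2. Over all alternatives the log2 fold change of Slc44a1 ran from -0.66 to -0.48 and its adjusted p from 0.0574 to 1.0. The related carrier Slc44a2, also called CTL2 and much more abundant, had 181, 145 and 169 CPM in STAT3+ CM and 139, 136 and 211 CPM in STAT3- CM, with overlapping groups and a log2 fold change of 0.03 (95% interval -0.37 to 0.43). Its highest value was that of STAT3- CM replicate 3.

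The 250 bases before the start of Slc44a1 are shown because this gene led the comparison. They come from RefSeq (GRCm38.p6, + strand, chr4:53440163-53440412), whose table holds 2 starts for the gene, of which the most upstream is shown. Which start these cells use was not tested. Capitals mark a match to TGCGCNC on the + strand, a core of the metal response element, 215 bases before the start.
Slc44a1: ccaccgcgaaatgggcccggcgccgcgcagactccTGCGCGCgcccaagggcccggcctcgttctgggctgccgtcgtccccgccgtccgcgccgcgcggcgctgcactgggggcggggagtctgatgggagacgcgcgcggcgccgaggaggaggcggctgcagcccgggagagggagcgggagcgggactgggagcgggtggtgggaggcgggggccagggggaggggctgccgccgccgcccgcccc

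The core of the metal response element was searched as TGCACNC or TGCGCNC on both strands. It was found in 21.4% of 32851 RefSeq promoter windows of that length and in 48 of 171 windows (28.1%) of solute carrier genes, for 126 of which a window was held. A match is a string of letters and shows no binding.

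Among carriers of amino acids and their derivatives, 5 of 20 log2 fold changes were above 0 and 15 below, with a median of -0.11, against a median of 0.00 over all genes. That class median was -0.30 without STAT3+ CM replicate 3, -0.02 without STAT3- CM replicate 3 and 0.01 when STAT3+ CM replicate 1 was left out as well as STAT3- CM replicate 3. At an unadjusted p under 0.05 in edgeR, 1 gene was higher in STAT3+ CM (against 1.34% of all genes) and 2 were lower (against 2.3%). The class summed to 404 ± 60.7 CPM in STAT3+ CM and 442 ± 19.2 CPM in STAT3- CM (SD, n = 3 each), a difference within the spread of the STAT3+ CM libraries. The highest level per length in the class was that of Slc6a6, the taurine transporter, with 25.3 ± 6.65 CPM per kb of exon in STAT3+ CM and 29.7 ± 0.872 in STAT3- CM.

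Slc6a11 and Slc6a12 had the most negative fold changes of all the solute carrier genes. Slc6a12, the betaine and GABA transporter BGT1, is an osmolyte importer of kidney cells. It had 0.330, 1.85 and 3.61 CPM in STAT3+ CM replicates 1 to 3, against 9.76, 5.11 and 5.54 CPM in STAT3- CM replicates 1 to 3. Every STAT3+ CM value was below every STAT3- CM value, but the 3 STAT3+ CM libraries were far apart from each other, replicate 1 being the lowest of all and STAT3- CM replicate 1 the highest. The log2 fold change of Slc6a12 was -1.76 (SE 0.53, edgeR adjusted p 0.973), and it was -2.67 without STAT3+ CM replicate 3 and -1.28 without STAT3+ CM replicate 1.

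Slc6a11 encodes a GABA transporter known chiefly from astrocytes. Only 75 reads were counted for it in all 6 libraries. Its level was 0.0220, 0.144 and 0.144 CPM in STAT3+ CM and 0.684, 0.341 and 0.281 CPM in STAT3- CM, without overlap, and its log2 fold change was -2.02 (SE 0.58, edgeR adjusted p 0.864). Of 6 astrocyte markers only Aldh1l1 was in the table, with 1.03 to 2.47 CPM in STAT3+ CM and 0.949 to 1.86 CPM in STAT3- CM. The third member of this group of carriers, Slc6a13, a GABA and taurine transporter and the neighbour of Slc6a12 in the RefSeq gene order, had 0.529, 0.697 and 1.07 CPM in STAT3+ CM and 0.927, 1.04 and 1.21 CPM in STAT3- CM, with overlap and a log2 fold change of -0.44 (95% interval -1.16 to 0.28). Slc6a13 was named after its values were seen.

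The 250 bases before the start of Slc6a12 are shown because the gene had a large fold change and is a textbook target of NFAT5, the factor that answers to high tonicity. They lie at chr6:121342324-121342573 (RefSeq, GRCm38.p6, + strand), before the most upstream of 5 starts in the table. Matches before the other starts are not given, and which start these cells use was not tested. Capitals mark a match to TGGAAA on the + strand, 75 bases before the start.
Slc6a12: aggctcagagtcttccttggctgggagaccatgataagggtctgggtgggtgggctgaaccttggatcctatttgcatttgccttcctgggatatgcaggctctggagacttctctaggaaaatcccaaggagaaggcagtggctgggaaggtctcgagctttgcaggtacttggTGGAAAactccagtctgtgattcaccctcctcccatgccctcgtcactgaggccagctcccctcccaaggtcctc

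TGGAAA, the core of the tonicity element, was searched on both strands and holds within it GGAAA, the core bound by the other NFAT factors. It was found in 18.6% of all windows and in 27 of 171 windows (15.8%) of solute carrier genes.

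The 3 carriers of organic osmolytes that NFAT5 is best known for are Slc6a12, Slc6a6 and Slc5a3, and they were put side by side after their values were seen. Slc6a6 had 140.1, 127 and 204 CPM in STAT3+ CM and 183, 179 and 189 CPM in STAT3- CM, and STAT3+ CM replicate 3 was the highest of the 6 libraries. Slc5a3, which imports myo-inositol with sodium, had 30.2, 34.01 and 60.2 CPM in STAT3+ CM and 47.4, 40.3 and 91.3 CPM in STAT3- CM. In both groups replicate 3 was the highest for Slc5a3, and the groups overlapped. The log2 fold change was -0.23 (95% interval -0.61 to 0.15) for Slc6a6 and -0.52 (95% interval -1.26 to 0.22) for Slc5a3. For Slc5a3 it was -0.08 without STAT3- CM replicate 3, -0.89 without STAT3+ CM replicate 3, and 0.11 without both STAT3+ CM replicate 1 and STAT3- CM replicate 3.

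Slc43a1, or LAT3, which lets leucine and its relatives pass by facilitated diffusion, had 4.63, 3.34 and 3.99 CPM in STAT3+ CM, against 2.05, 2.47 and 2.75 CPM in STAT3- CM. All STAT3+ CM libraries were above all STAT3- CM libraries. Its log2 fold change was 0.72 (SE 0.23, 95% interval 0.20 to 1.24, edgeR adjusted p 0.989), and it lay between 0.60 and 0.82 over all alternatives. Slc43a2, or LAT4, had 27.9, 22.96 and 25.6 CPM in STAT3+ CM and 22.9, 20.2 and 22.6 CPM in STAT3- CM, again without overlap but by a small margin, with a log2 fold change of 0.22 (95% interval -0.08 to 0.52). Slc6a19, the neutral amino acid transporter of gut and kidney epithelium, had 22.2, 22.4 and 17.1 CPM in STAT3+ CM and 19.9, 9.75 and 13.97 CPM in STAT3- CM. Its groups overlapped through STAT3+ CM replicate 3 and STAT3- CM replicate 1, and the log2 fold change was 0.50 (SE 0.24, edgeR adjusted p 0.989). It was 0.79 without STAT3- CM replicate 1 and 0.28 without STAT3- CM replicate 2.

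Exchange of sodium, protons, potassium and calcium held 11 genes, with 2 log2 fold changes above 0 and 9 below and a median of -0.12. Their summed level was 127 ± 14.7 CPM in STAT3+ CM and 138 ± 14.3 CPM in STAT3- CM (SD, n = 3 each). Slc9a7, a sodium/proton exchanger of the trans-Golgi network, had 2.29, 1.85 and 2.47 CPM in STAT3+ CM, against 4.42, 3.47 and 2.81 CPM in STAT3- CM, without overlap. Its log2 fold change was -0.68 (SE 0.25, edgeR adjusted p 0.989). Slc8a2, a plasma membrane sodium/calcium exchanger best known from neurons, had 0.0881, 0.192 and 0.506 CPM in STAT3+ CM and 0.795, 0.617 and 0.736 CPM in STAT3- CM from 139 reads in all, also without overlap. The log2 fold change of Slc8a2 was -1.35 (SE 0.46), with -2.35 without STAT3+ CM replicate 3, the library of its group that lay nearest to STAT3- CM, and -0.95 without STAT3+ CM replicate 1.

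Slc9a8, a sodium/proton exchanger of the mid-Golgi and the highest of the class per length, averaged 36.3 ± 3.69 CPM in STAT3+ CM and 39.4 ± 2.07 CPM in STAT3- CM (SD, n = 3 each). Its log2 fold change was -0.12 (95% interval -0.40 to 0.16). Of 10 tested sodium, potassium and calcium pumps, which set the gradients these exchangers run on, 2 log2 fold changes were above 0 and 8 below, and none had an unadjusted p under 0.05 in edgeR. Atp1b2, a beta subunit of the sodium/potassium pump, averaged 1.19 ± 0.577 CPM in STAT3+ CM and 2.04 ± 0.593 CPM in STAT3- CM, and Atp2b1, a calcium pump of the plasma membrane, 66.9 ± 10.1 CPM in STAT3+ CM and 81.3 ± 7.82 CPM in STAT3- CM.

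Chloride, bicarbonate and sulfate carriers were 15, with 6 log2 fold changes above 0, 9 below and a median of -0.05. Slc4a7, a sodium bicarbonate importer, had the highest level per length of the class at 11.5 ± 3.803 CPM per kb in STAT3+ CM and 11.9 ± 0.603 in STAT3- CM. It had 75.7, 75.3 and 129 CPM in STAT3+ CM, where replicate 3 stood above the other two, and 95.1, 93.3 and 103 CPM in STAT3- CM. Slc4a2, the chloride/bicarbonate exchanger AE2, had 26.1, 33.5 and 36.7 CPM in STAT3+ CM and 45.2, 38.1 and 31.8 CPM in STAT3- CM, with overlap and a log2 fold change of -0.26 (95% interval -0.64 to 0.12). Among kinases of cell volume control and chloride channels, 5 of 13 tested genes were above 0 and 8 below. The intracellular chloride channel protein Clic4 averaged 191 ± 24.7 CPM in STAT3+ CM and 238 ± 16.2 CPM in STAT3- CM. It was the 1 gene of that list with an unadjusted p under 0.05 (edgeR adjusted p 0.989). Of all genes, 2.3% were lower in STAT3+ CM at that unadjusted p. Next came the lysosomal chloride/proton exchanger Clcn7 at 15.9 ± 0.967 CPM in STAT3+ CM and 19.3 ± 1.77 CPM in STAT3- CM.

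**Figure D2:**
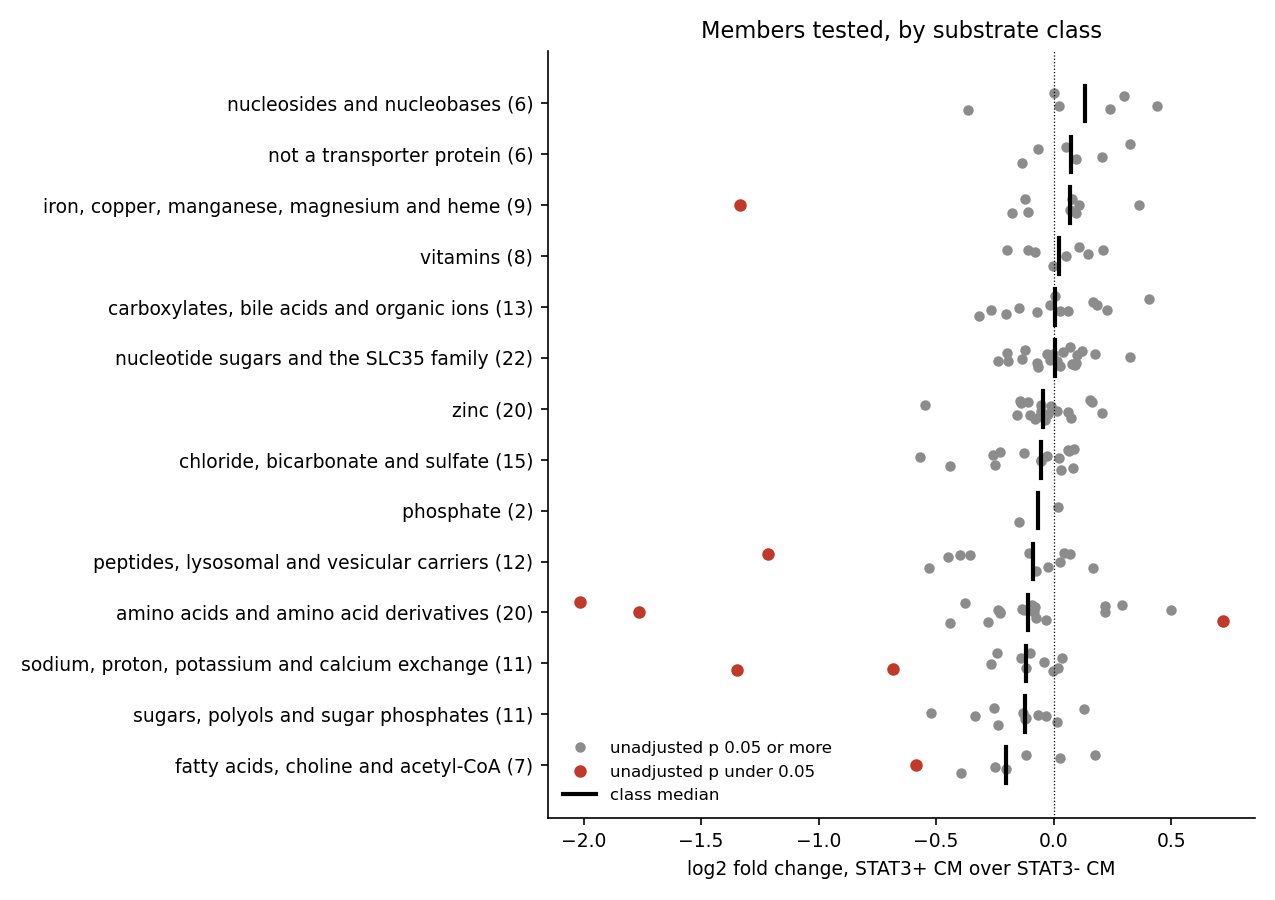
Log2 fold change, STAT3+ CM over STAT3- CM (x axis), of the 162 tested solute carrier genes, 1 point a gene, by substrate class (rows, number tested in brackets), with the class median as a black bar. Red points are the 8 genes with an unadjusted p under 0.05, and class medians lie between -0.20 and 0.13.

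Of the 14 class medians, 9 changed sign in at least 1 of 17 alternatives. Iron, copper, manganese, magnesium and heme carriers gave 5 log2 fold changes above 0 and 4 below among 9 genes. Slc11a2, or DMT1, which releases iron from endosomes after transferrin uptake, averaged 33.8 ± 6.18 CPM in STAT3+ CM and 32.01 ± 1.37 CPM in STAT3- CM (SD, n = 3 each). Slc31a1, the copper importer CTR1, averaged 49.03 ± 5.41 CPM in STAT3+ CM and 46.7 ± 2.47 CPM in STAT3- CM. The 95% interval of the log2 fold change was -0.25 to 0.41 for Slc11a2 and -0.21 to 0.35 for Slc31a1, both inside 1.5-fold. The lysosomal heme carrier Slc48a1 had 46.1, 42.1 and 46.2 CPM in STAT3+ CM and 46.4, 49.4 and 49.2 CPM in STAT3- CM, which did not overlap with a log2 fold change of -0.11 (SE 0.12). Slc41a2, a magnesium carrier, had 0.0881, 0.192 and 0.163 CPM in STAT3+ CM and 0.419, 0.341 and 0.368 CPM in STAT3- CM from 73 reads in all, without overlap, with a log2 fold change of -1.33 (SE 0.41, edgeR adjusted p 0.973). The iron exporter Slc40a1 was not among the rows analysed here.

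The genes that handle these metals inside the cell had no unadjusted p under 0.05. Of 14 iron genes 7 log2 fold changes were above 0 and 7 below. Hmox1, which breaks down heme, averaged 13.99 ± 0.973 CPM in STAT3+ CM and 19.8 ± 9.07 CPM in STAT3- CM, and the iron chaperone Pcbp1 503 ± 28.97 CPM in STAT3+ CM and 461 ± 72.0 CPM in STAT3- CM. Of 8 copper genes 5 were above 0 and 3 below, led by the copper pump Atp7a with 3.97 ± 1.199 CPM in STAT3+ CM and 5.27 ± 0.516 CPM in STAT3- CM, and the copper chaperone Atox1 with 47.4 ± 7.80 CPM in STAT3+ CM and 41.5 ± 3.62 CPM in STAT3- CM.

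Zinc carriers made up 20 genes, of which 6 log2 fold changes were above 0 and 14 below, with a median of -0.05. Their summed level was 633 ± 37.8 CPM in STAT3+ CM and 645 ± 26.5 CPM in STAT3- CM (SD, n = 3 each). No zinc carrier had an unadjusted p under 0.05 in edgeR, and all 20 overlapped between the groups. The importer Slc39a1 (ZIP1) had the highest level per length, 30.3 ± 3.37 CPM per kb in STAT3+ CM and 29.1 ± 2.70 in STAT3- CM. Slc39a7, which releases zinc from the endoplasmic reticulum, had 16.7, 18.4 and 21.5 CPM in STAT3+ CM and 18.5, 16.6 and 15.6 CPM in STAT3- CM, with a log2 fold change of 0.16 (95% interval -0.17 to 0.50). Slc39a10, an importer needed by lymphocytes, had 51.2, 36.99 and 57.0 CPM in STAT3+ CM and 40.8, 47.6 and 60.6 CPM in STAT3- CM, and replicate 3 was the highest library in both groups.

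Slc30a1, or ZnT1, exports zinc and is a textbook target of the metal-responsive factor MTF1. It had 7.34, 10.8 and 8.09 CPM in STAT3+ CM and 10.9, 9.77 and 8.19 CPM in STAT3- CM, with overlap and a log2 fold change of -0.15 (95% interval -0.59 to 0.30). The 250 bases before its start are shown as a window of a known metal response gene (RefSeq, GRCm38.p6, + strand, chr1:191906531-191906780). Capitals mark a match to TGCACNC on the - strand, read here on the + strand, 43 bases before the start.
Slc30a1: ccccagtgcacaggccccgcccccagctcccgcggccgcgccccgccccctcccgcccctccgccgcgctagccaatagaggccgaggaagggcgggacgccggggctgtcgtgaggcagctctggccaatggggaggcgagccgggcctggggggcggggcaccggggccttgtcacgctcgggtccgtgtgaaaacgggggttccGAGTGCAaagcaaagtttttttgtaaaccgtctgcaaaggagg

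Of 4 metallothionein and zinc control genes 1 log2 fold change was above 0 and 3 below. Mt2 had 43.6, 48.6 and 42.5 CPM in STAT3+ CM and 54.0, 75.9 and 31.7 CPM in STAT3- CM, and Mt3 7.09, 5.64 and 5.81 CPM in STAT3+ CM and 3.69, 4.39 and 5.33 CPM in STAT3- CM. The Mt3 values did not overlap, while the Mt2 values of STAT3+ CM lay within the range of STAT3- CM. Neither Mt2 nor Mt3 had an unadjusted p under 0.05 in edgeR.

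Nucleoside and nucleobase carriers were 6, with 4 log2 fold changes above 0 and 2 below and a median of 0.13. Slc29a1, the equilibrative nucleoside transporter ENT1, had 56.6 ± 6.17 CPM per kb in STAT3+ CM and 55.7 ± 7.62 in STAT3- CM, the highest level per length of any transporter here. Its CPM was 132, 164 and 155 in STAT3+ CM, against 166, 152 and 126 in STAT3- CM, with a log2 fold change of 0.02 (95% interval -0.29 to 0.34). Slc29a3, or ENT3, the lysosomal nucleoside exporter, had 21.9, 22.8 and 33.2 CPM in STAT3+ CM and 38.5, 31.7 and 30.3 CPM in STAT3- CM. STAT3+ CM replicate 3 lay among the STAT3- CM libraries, and the log2 fold change was -0.36 (SE 0.18, edgeR adjusted p 0.989), with -0.59 when that library was left out.

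The sodium-coupled purine nucleoside carrier Slc28a2 and its neighbouring copy Slc28a2b are near-identical, and how the authors' counting split reads between them is unknown. Slc28a2 had 40.6, 25.2 and 29.5 CPM in STAT3+ CM and 25.01, 23.3 and 32.4 CPM in STAT3- CM. For Slc28a2b it was 14.8, 9.97 and 9.80 CPM in STAT3+ CM and 9.03, 5.58 and 10.9 CPM in STAT3- CM. For each copy the groups overlapped, and the log2 fold changes were 0.24 for Slc28a2 (95% interval -0.19 to 0.68) and 0.44 for Slc28a2b (95% interval -0.14 to 1.02). The value for Slc28a2b was 0.22 without STAT3+ CM replicate 1 and 0.20 without STAT3- CM replicate 2. The enzymes of nucleoside salvage gave 11 log2 fold changes above 0 and 3 below among 14, with a median of 0.12. Over all genes 50.2% were above 0. Of the 14, 3 were higher in STAT3+ CM at an unadjusted p under 0.05 (edgeR), against 1.34% of all genes. How far this list moves with single libraries was not tested. Adenosine deaminase, Ada, averaged 22.1 ± 5.61 CPM in STAT3+ CM and 15.3 ± 2.35 CPM in STAT3- CM, and mitochondrial thymidine kinase, Tk2, averaged 18.8 ± 1.03 CPM in STAT3+ CM and 14.8 ± 0.473 CPM in STAT3- CM. The adjusted p of both was 0.989 in edgeR.

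The vitamin carriers were 8, split 4 above 0 and 4 below. Slc19a1, the reduced folate carrier, which also takes up cyclic dinucleotides, had 77.6, 108 and 107 CPM in STAT3+ CM and 111, 104 and 78.8 CPM in STAT3- CM. Its lowest libraries were STAT3+ CM replicate 1 and STAT3- CM replicate 3, and the log2 fold change was 0.00 (95% interval -0.38 to 0.38). Slc23a2, the vitamin C importer SVCT2, had 24.6, 23.7 and 31.3 CPM in STAT3+ CM and 31.7, 30.1 and 29.7 CPM in STAT3- CM, with a log2 fold change of -0.20 (95% interval -0.52 to 0.12) and overlap through STAT3+ CM replicate 3. Of 12 tested folate and thiamine enzymes 4 were above 0 and 8 below, with no unadjusted p under 0.05 in edgeR. Ggh, which trims folate polyglutamates, averaged 23.8 ± 0.779 CPM in STAT3+ CM and 19.6 ± 1.69 CPM in STAT3- CM.

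Phosphate enters through Slc20a1 and Slc20a2. Slc20a1, also known as a retrovirus receptor, had 108, 109 and 126 CPM in STAT3+ CM and 136, 136 and 108 CPM in STAT3- CM. STAT3- CM replicate 3 was as low as STAT3+ CM replicates 1 and 2, and the log2 fold change was -0.15 (95% interval -0.45 to 0.15). Slc20a2 averaged 15.1 ± 3.07 CPM in STAT3+ CM and 14.96 ± 0.984 CPM in STAT3- CM (SD, n = 3 each), with a log2 fold change of 0.02.

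The SLC35 family was the largest class with 22 genes, 11 above 0 and 11 below, and its median log2 fold change was 0.01. Summed, it gave 779.9 ± 39.96 CPM in STAT3+ CM and 776 ± 32.5 CPM in STAT3- CM (SD, n = 3 each). The highest level per length was that of Slc35b1, an ATP/ADP exchanger of the endoplasmic reticulum, with 36.8 ± 4.86 CPM per kb in STAT3+ CM and 32.6 ± 4.98 in STAT3- CM. Slc35b4, a Golgi carrier of UDP-xylose and UDP-N-acetylglucosamine, had 38.02, 39.9 and 43.1 CPM in STAT3+ CM and 51.2, 48.5 and 43.1 CPM in STAT3- CM, touching between STAT3+ CM replicate 3 and STAT3- CM replicate 3. Its log2 fold change was -0.24 (SE 0.12, edgeR adjusted p 0.989). Slc35d1, a carrier of UDP-glucuronic acid of the endoplasmic reticulum and named for its groups' lack of overlap, had 18.1, 19.3 and 20.4 CPM in STAT3+ CM and 22.7, 21.0 and 22.7 CPM in STAT3- CM. The glycosylation enzymes that these carriers feed split 9 above 0 and 9 below among 18. Man1a, a Golgi mannosidase, averaged 116 ± 5.99 CPM in STAT3+ CM and 135 ± 11.5 CPM in STAT3- CM, and the sialyltransferase St3gal1 37.4 ± 11.8 CPM in STAT3+ CM and 48.8 ± 7.36 CPM in STAT3- CM.

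**Figure D3:**
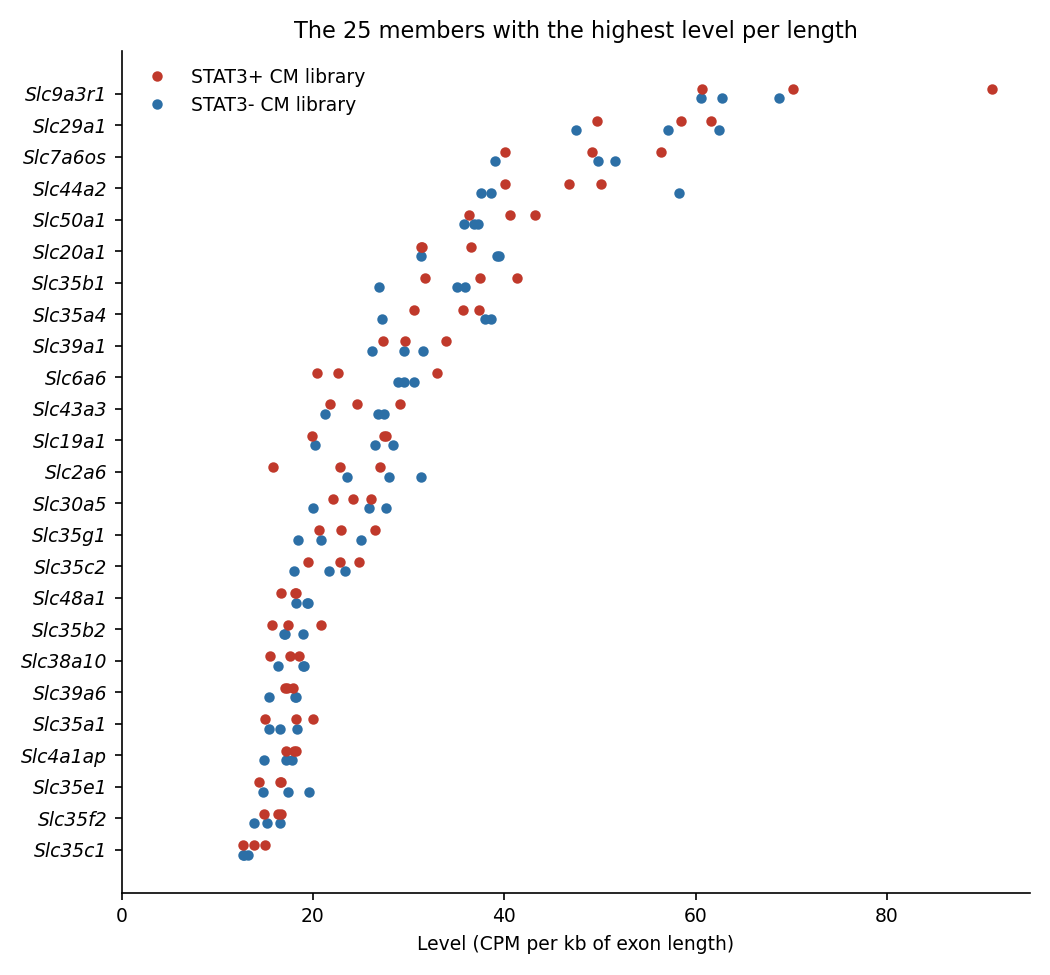
Level per length (x axis, CPM per kb of exon, from 0) of the 25 solute carrier genes with the highest mean level, 1 point for each library, with STAT3+ CM in red above STAT3- CM in blue. The scaffold gene Slc9a3r1 and the nucleoside carrier Slc29a1 stand highest, and the colours overlap for all but Slc48a1.

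Sugar, polyol and sugar phosphate carriers gave 2 log2 fold changes above 0 and 9 below among 11, with a median of -0.12. Slc50a1, a sugar carrier of the SWEET family, was the highest of them per length with 40.05 ± 3.51 CPM per kb in STAT3+ CM and 36.6 ± 0.764 in STAT3- CM. Slc2a6, the lysosomal glucose transporter family member GLUT6, had 33.7, 48.8 and 57.7 CPM in STAT3+ CM and 59.8, 67.0 and 50.3 CPM in STAT3- CM. Its lowest library was STAT3+ CM replicate 1, without which the log2 fold change was -0.15, against -0.34 with all libraries (SE 0.19, edgeR adjusted p 0.989).

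Carriers of carboxylates, bile acids and organic ions numbered 14, of which 13 were tested, with 7 above 0 and 6 below. Slc16a6, or MCT7, a carrier of ketone bodies as known from zebrafish liver, had 53.6, 48.6 and 55.4 CPM in STAT3+ CM and 46.3, 49.7 and 42.7 CPM in STAT3- CM. It overlapped through STAT3+ CM replicate 2 and had a log2 fold change of 0.18 (95% interval -0.09 to 0.46). Fatty acid, choline and acetyl-CoA carriers, the class of Slc44a1, gave 2 above 0 and 5 below among 7 and a median of -0.20, which was -0.38 without STAT3- CM replicate 2 and 0.10 without STAT3- CM replicate 3. Of 10 genes of choline and phospholipid synthesis 3 were above 0 and 7 below, with no unadjusted p under 0.05 in edgeR. Chka, the kinase that traps imported choline, averaged 12.03 ± 2.14 CPM in STAT3+ CM and 14.8 ± 2.08 CPM in STAT3- CM, and the ethanolamine kinase Etnk2 0.313 ± 0.138 CPM in STAT3+ CM and 0.434 ± 0.178 CPM in STAT3- CM.

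Peptide, lysosomal and vesicular carriers gave 4 log2 fold changes above 0 and 8 below among 12. Slc15a1, the intestinal peptide transporter PEPT1, had 0.198, 0.240 and 0.343 CPM in STAT3+ CM and 0.795, 0.809 and 0.260 CPM in STAT3- CM from 124 reads in all. Its groups overlapped through STAT3- CM replicate 3, and the log2 fold change was -1.21 (SE 0.48, edgeR adjusted p 0.989). Slc15a4, the lysosomal histidine and peptide carrier known from endosomal Toll-like receptor signalling, averaged 19.98 ± 1.59 CPM in STAT3+ CM and 21.0 ± 2.50 CPM in STAT3- CM (SD, n = 3 each). Slc17a9, which loads ATP into vesicles and had the highest level per length of this class, averaged 23.4 ± 3.49 CPM in STAT3+ CM and 22.8 ± 3.88 CPM in STAT3- CM. The 95% interval of the log2 fold change was -0.40 to 0.25 for Slc15a4 and -0.33 to 0.41 for Slc17a9.

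The 6 genes that share the Slc symbol without being transporters gave 4 log2 fold changes above 0 and 2 below. Slc9a3r1, which encodes the scaffold protein NHERF1, had the highest level per length of the 159 genes for which a length was held, 74.0 ± 15.5 CPM per kb in STAT3+ CM and 64.1 ± 4.22 in STAT3- CM. It had 175, 135 and 117 CPM in STAT3+ CM, where replicate 1 was the highest, and 121, 132 and 117 CPM in STAT3- CM. Slc36a3os, an RNA named as opposite in strand to Slc36a3, had 3.04, 4.73 and 4.32 CPM in STAT3+ CM and 3.36, 3.15 and 3.14 CPM in STAT3- CM. The strand setting of the authors' counting is unknown, so reads of Slc36a3os and of Slc7a6os, which overlaps Slc7a6, cannot be told from those of their partners.

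Transporters of other families were set beside these. Of 22 tested ABC transporters 5 log2 fold changes were above 0 and 17 below, with a median of -0.15. Over all genes 49.8% were below 0. The summed level of the ABC transporters was 610 to 781 CPM in STAT3+ CM and 734 to 807 CPM in STAT3- CM, which overlapped. How far their split moves with single libraries was not tested. At an unadjusted p under 0.05 in edgeR 1 ABC transporter was higher in STAT3+ CM, against 1.34% of all genes. That gene was Abcg2, an efflux pump of drugs and porphyrins, with 12.8 ± 1.33 CPM in STAT3+ CM and 9.93 ± 1.16 CPM in STAT3- CM, and the next, Abca2, averaged 62.8 ± 14.5 CPM in STAT3+ CM and 80.3 ± 8.67 CPM in STAT3- CM. All 3 tested organic anion transporters of the Slco family were below 0. Slco5a1 was the 1 of them with an unadjusted p under 0.05 in edgeR, where 2.3% of all genes were lower. It averaged 0.129 ± 0.0453 CPM in STAT3+ CM and 0.268 ± 0.0743 CPM in STAT3- CM. Slco4a1 averaged 61.7 ± 28.3 CPM in STAT3+ CM and 86.3 ± 15.1 CPM in STAT3- CM. Of 22 carriers with other names 11 were above 0 and 11 below, led by Mfsd12 at 14.1 ± 1.14 CPM in STAT3+ CM and 16.9 ± 2.76 CPM in STAT3- CM and Mfsd11 at 12.6 ± 0.836 CPM in STAT3+ CM and 14.6 ± 0.874 CPM in STAT3- CM.

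**Figure D4:**
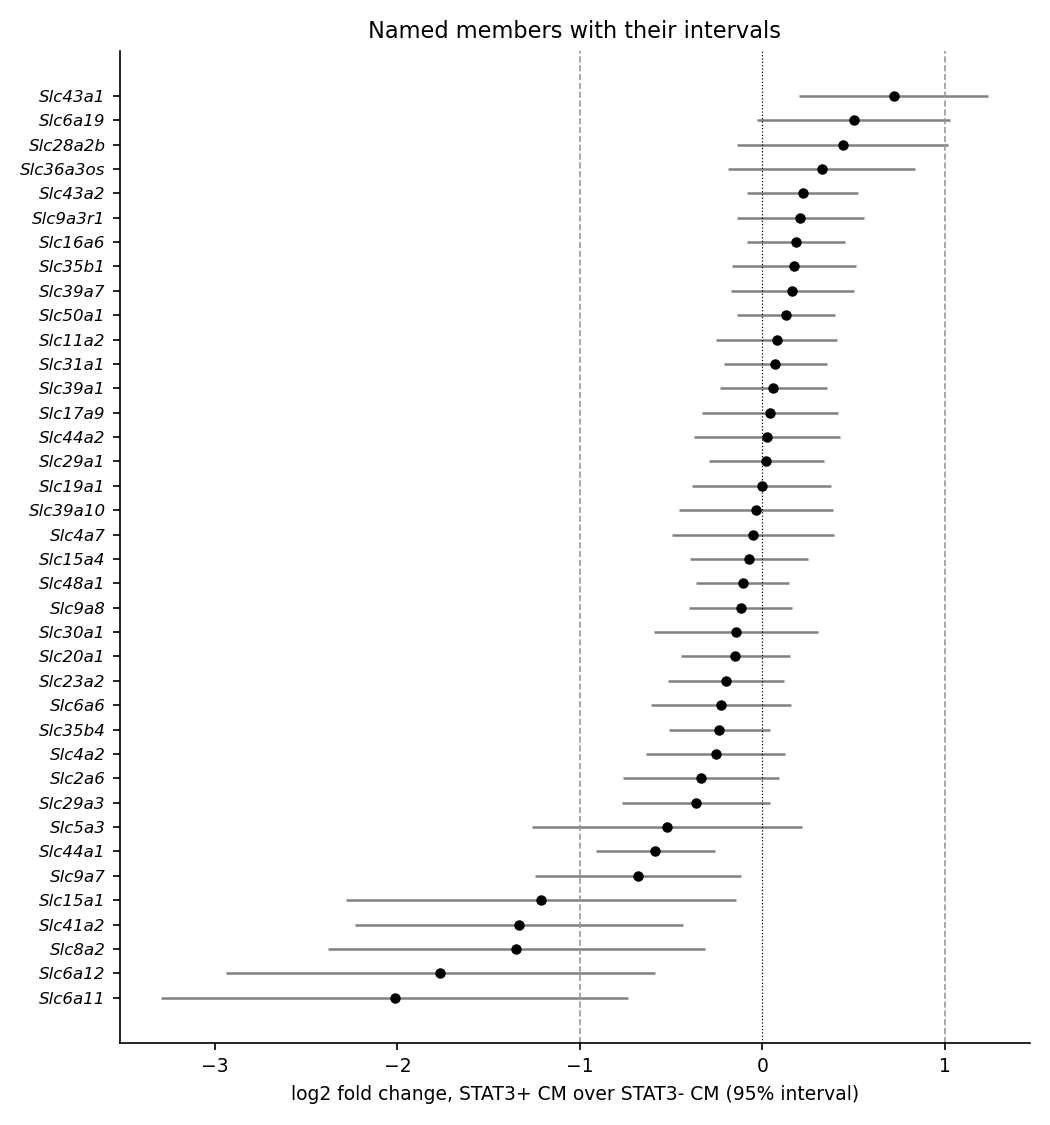
Log2 fold change, STAT3+ CM over STAT3- CM (x axis), with its 95% interval from the edgeR fit (grey bars), for solute carrier genes named by rule (rows, highest at the top). Dotted and dashed vertical lines mark no change and 2-fold, and the intervals of 8 genes leave out 0 before adjustment while no adjusted p passed 0.05.

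The log2 fold changes of the solute carrier genes were more often below 0 than above. Of 162 genes 99 were negative (61.1%) and 63 positive (38.9%), against 49.8% negative and 50.2% positive among all genes, and the median was -0.05. This split moved with single libraries. STAT3+ CM replicate 1 held the lowest of the 6 values for 60 solute carrier genes (37.04%), against 17.4% of all genes, while STAT3+ CM replicate 3 held the lowest for 8 (4.94%), against 10.8% of all genes. Without STAT3+ CM replicate 1 the negative share was 53.1% (86 genes), without STAT3- CM replicate 3 it was 52.1%, and without both it was 47.5% (77 genes). It was 71.8% without STAT3+ CM replicate 3.

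**Figure D5:**
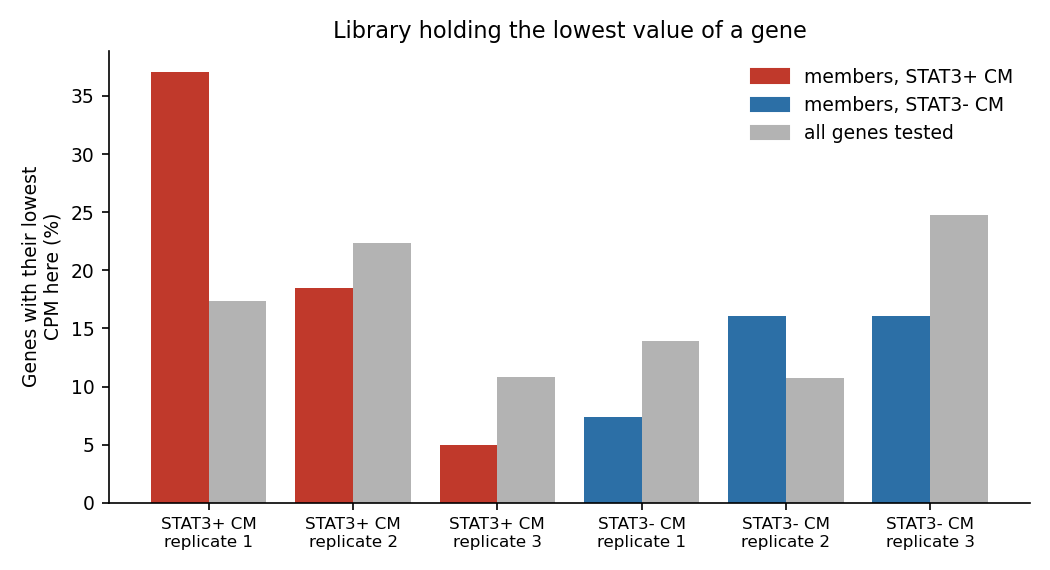
Share of genes (y axis, percent, from 0) whose lowest CPM of the 6 libraries fell in each library (x axis), for the 162 tested solute carrier genes (red STAT3+ CM, blue STAT3- CM) and for all 14319 tested genes (grey). STAT3+ CM replicate 1 holds the lowest value of 37.04% of the solute carrier genes and 17.4% of all genes.

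Libraries also stood apart from the rest of their own group. Among 143 solute carrier genes with a mean of at least 1 CPM, 15 were more than 1.5-fold above both other STAT3- CM libraries in STAT3- CM replicate 3 (10.5%, against 6.84% of all genes), and 12 were more than 1.5-fold below both other STAT3+ CM libraries in STAT3+ CM replicate 1 (8.39%, against 3.29%). In STAT3+ CM replicate 3, 10 genes were more than 1.5-fold above both others (6.99%, against 2.67%) and 0 were below. Examples from STAT3- CM replicate 3, chosen after their values were seen, were the orphan SLC35 gene Slc35d3, with 6.81, 5.81 and 8.27 CPM in STAT3+ CM and 1.83, 3.66 and 11.3 CPM in STAT3- CM, and the sodium/proton exchanger Slc9a5, with 14.8, 9.87 and 15.3 CPM in STAT3+ CM and 10.5, 9.86 and 27.7 CPM in STAT3- CM. In each, replicate 3 of STAT3- CM exceeded all 5 other libraries.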

How the data were processed

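Polyadenylated RNA of 6 libraries was sequenced from directional preparations, per the labels' protocols. The authors deposited whole-number counts per gene, with 1 column for each library and 0 columns left unused. Per the submitters' processing notes, the build was GRCm39 and the tools included Cufflinks 2.2.1, SAMtools 0.1.19, Bowtie 1.0.0, TopHat2 2.0.10 and FastQC. Not given in the sources used here are the counting program, its annotation and its strand setting. The table held 14481 genes with a lowest total of 40 reads.

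Counts were filtered with filterByExpr (14319 genes kept), scaled by TMM factors of 0.9605 to 1.0604, and compared over all genes with edgeR 4.0.16 in R 4.3.3 (quasi-likelihood F test, robust setting). P-values were two-sided and adjusted after Benjamini and Hochberg over every tested gene, and the threshold was 0.05. CPM are counts over the scaled library size. Level per length divides CPM by exon length in kb (GRCm38 annotation), held for 159 of the 163 genes. Intervals are 95%, and the SE was taken as the size of the log2 fold change divided by the root of F. Promoters came from RefSeq (GRCm38.p6).

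Named genes were the 15 with the smallest p, the leader of each class by level per length and by p, and a panel of 10 (9 in the table), 39 in all, with the 2 smallest p of each of 12 companion lists. Some genes that the rule names are left out of the text. Members, classes, lists and panel were chosen with earlier results of these data known. Alternatives were other scalings, filters and tests (DESeq2 1.42.0, limma-voom 3.58.1), a replicate block, and libraries left out, while the reported values use all 6 libraries. Scripts were tested on simulated data. No label says that libraries of the same replicate number are paired, and the main fit did not pair them. Their deviations from the group means correlated at -0.261, 0.281 and 0.182 across genes. Between unlike numbers the correlations ran from -0.495 to 0.423. These values cannot decide the question, because deviations within a group of 3 offset each other.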

Additional observations from a re-analysis of the deposited data

How the results depend on the processing

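Under 17 alternatives no solute carrier gene reached an adjusted p under 0.05. Of 659 values of the 39 named genes, 624 kept their sign and 35 did not, and 28 genes kept it in every alternative run. Over all genes the count past the threshold was 48 in DESeq2, 16 in limma-voom with sample quality weights, 10 without both of STAT3+ CM replicate 1 and, in the other group, STAT3- CM replicate 3, and 0 to 18 with 1 library left out, the 18 without STAT3- CM replicate 3. Solute carrier genes at an unadjusted p under 0.05, 8 in edgeR, numbered 4 where at least 1 CPM in at least 3 libraries was required (Slc6a11, Slc41a2, Slc8a2 and Slc15a1 were not tested there; 3.34% of all genes), 17 with sample quality weights (8.05% of all genes), 13 without both libraries (7.0% of all genes), and 5 to 23 with 1 library left out. The 23 came without STAT3+ CM replicate 3 (9.45% of all genes), the 16 without STAT3- CM replicate 3 (6.51%) and the 5 without STAT3+ CM replicate 2 (2.03%). With library totals as the only scaling, 71.0% of solute carrier genes and 58.7% of all genes were negative. Slc19a1 was 0.00182 with RLE scaling, 0.0137 with upper-quartile scaling, 0.00177 in DESeq2 and 0.00318 without both libraries. With library totals only, Slc44a2 was -0.0250, Slc29a1 -0.0160 and Slc17a9 -0.000758. With quality weights, Slc29a1 was -0.0403 and Slc39a10 0.0382. Without both libraries, Slc5a3 was 0.11, Slc4a7 0.12, Slc9a3r1 -0.0071, Slc11a2 -0.0554, Slc31a1 -0.00917 and Slc39a10 0.0900. With 1 library left out, the log2 fold change ran from -0.0928 to 0.262 for Slc44a2, -0.0848 to 0.190 for Slc17a9, -0.137 to 0.136 for Slc19a1, -0.0808 to 0.113 for Slc29a1, -0.0295 to 0.129 for Slc39a1, -0.172 to 0.131 for Slc39a10, -0.360 to 0.0803 for Slc4a7, -0.0824 to 0.155 for Slc11a2 and -0.0113 to 0.147 for Slc31a1. The cause was not tested.

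Whether the replicate numbers pair the libraries is not known. With the replicate number as a block, 0 genes of the table and 0 solute carrier genes passed, 10 solute carrier genes had an unadjusted p under 0.05 (4.95% of all genes) and 100 were negative.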
